A study of Mus musculus with 2 samples.

Results

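The TCF7 peaks of 8 genes of the kinetochore, DNA replication and the cell cycle were examined: Cenpe, Cenpn, Cenpp, Ttk, Cdt1, Mcm4, Mcm5 and Cdk16. They are 8 of the 779 peaks that MACS2 called in 1 TCF7 ChIP library over 1 input DNA library. The members were chosen by the peak list itself: 7 are the nearest gene of a peak in the authors' table, and Cenpn was taken because a peak lies within 1000 bp of its transcription start site (TSS), although that peak was assigned to its neighbor Cmc2. Having a peak is therefore no finding, and the values below describe these 8 peaks without a test. The purpose of the ChIP-seq was to find direct targets of β-catenin with Tcf/Lef factors in these lymphoma cells.

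Both libraries came from the same cells, a T-ALL (T-cell acute lymphoblastic leukemia) line made in the authors' laboratory, with genotype Lck-Akt2;Dlx5 transgenic in the labels (Lck-Dlx5;Lck-MyrAkt2 in the paper). The Lck promoter drives both transgenes in thymocytes and T cells, the labels describe the cells as double positive, and the line, DP352, comes from a mouse lymphoma, for which the labels give no age. Chromatin was fixed with formaldehyde and sonicated, and the ChIP library was made with the TCF1/TCF7 antibody C63D9, whereas the input library was sonicated DNA without antibody. There was 1 library of each kind, so that no value has an error between cultures, and no cells without the transgenes, without Tcf7 or with a nonspecific antibody were compared here. Of 14 marker genes of T cells, 3 (Cd8a, Tcf7 and Lef1) were the nearest gene of a peak, beside 579 of all 21951 protein-coding genes (2.64%). But a peak is not a measure of expression, so the labelled cell type was not checked by expression here.

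Tcf7 is an HMG-box protein that binds DNA by itself and recruits β-catenin as a coactivator when Wnt signaling is on. Before S phase, Cdt1 and the origin recognition complex load the ring of Mcm proteins, Mcm4 and Mcm5 among them, onto origins, and this ring later unwinds DNA at the fork. In mitosis, Cenpn and Cenpp belong to the constitutive centromere network that joins centromeric chromatin to the kinetochore, Cenpe is a kinesin motor that carries chromosomes along microtubules, and Ttk (Mps1) is the kinase that starts spindle checkpoint signaling. Many promoters of such genes are known for E2F sites, which time transcription to G1/S, or for a CHR (cell cycle genes homology region) next to CCAAT boxes, which time it to G2/M. Cdk16 (Pctaire1) is a cyclin Y-dependent kinase of the Cdk family.

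The sequences below are the GRCm38 reference within 100 bp of 6 of the summits, each written 5′ to 3′ on the strand of its gene and ending where the first exon begins if that lies inside the window. They are shown because they differ in which motifs they hold. Capitals mark the matches described further on, which are the CRE in Cenpe, an SP1/KLF box in Cenpn, a TCF/LEF motif on the opposite strand followed by an SP1/KLF box in Ttk, a pair of NRF1 motifs and an SP1/KLF box in Cdt1, and an E2F motif, an ETS motif on the opposite strand and another E2F motif in Mcm4. The Mcm5 window, which lies farther from its gene, held no match.
Cenpe, chr3:135212396-135212536, plus strand: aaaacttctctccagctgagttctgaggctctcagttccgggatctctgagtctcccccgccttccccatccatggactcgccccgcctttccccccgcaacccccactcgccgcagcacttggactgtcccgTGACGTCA
Cenpn, chr8:116921514-116921714, plus strand: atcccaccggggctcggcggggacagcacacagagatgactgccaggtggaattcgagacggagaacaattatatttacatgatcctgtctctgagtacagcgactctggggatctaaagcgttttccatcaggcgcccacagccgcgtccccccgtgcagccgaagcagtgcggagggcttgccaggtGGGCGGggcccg
Ttk, chr9:83834372-83834572, plus strand: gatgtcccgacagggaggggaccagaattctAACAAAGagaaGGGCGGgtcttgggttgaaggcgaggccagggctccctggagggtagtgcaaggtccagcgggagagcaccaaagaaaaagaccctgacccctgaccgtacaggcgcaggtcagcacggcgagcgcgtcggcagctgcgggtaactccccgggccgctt
Cdt1, chr8:122567839-122568014, plus strand: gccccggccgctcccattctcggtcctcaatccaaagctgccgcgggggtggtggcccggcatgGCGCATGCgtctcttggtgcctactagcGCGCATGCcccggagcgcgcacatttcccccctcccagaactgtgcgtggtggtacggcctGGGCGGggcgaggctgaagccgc
Mcm4, chr16:15637469-15637669, minus strand: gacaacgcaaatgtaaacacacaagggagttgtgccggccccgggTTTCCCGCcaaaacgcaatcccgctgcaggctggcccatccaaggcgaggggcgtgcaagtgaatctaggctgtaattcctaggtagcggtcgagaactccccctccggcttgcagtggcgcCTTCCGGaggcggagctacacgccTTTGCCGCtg
Mcm5, chr8:75108443-75108643, plus strand: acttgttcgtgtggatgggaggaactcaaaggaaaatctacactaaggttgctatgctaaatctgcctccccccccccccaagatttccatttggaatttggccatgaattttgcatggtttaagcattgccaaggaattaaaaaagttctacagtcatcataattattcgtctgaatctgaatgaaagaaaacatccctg

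Of the 8 summits, 7 lay within 1000 bp of the member's own TSS, at 41 to 217 bp from it, and the Mcm5 summit was just outside at 1026 bp. The rule fixed this for Cenpn. Among all peaks, 475 of 779 (61.0%) were promoter peaks, with a protein-coding TSS at most 1000 bp from the summit. All 8 summits were upstream of the nearest own TSS, as the map of the peaks around the gene starts shows. The promoter peaks of Cenpe, Cenpn, Cenpp, Cdt1 and Mcm4 covered that TSS, whereas the Ttk peak ended 89 bp before it and the Cdk16 peak 11 bp before it. The Cdk16 peak did cover another annotated TSS of Cdk16, which lies 272 bp upstream of its summit.

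**Figure D1:**
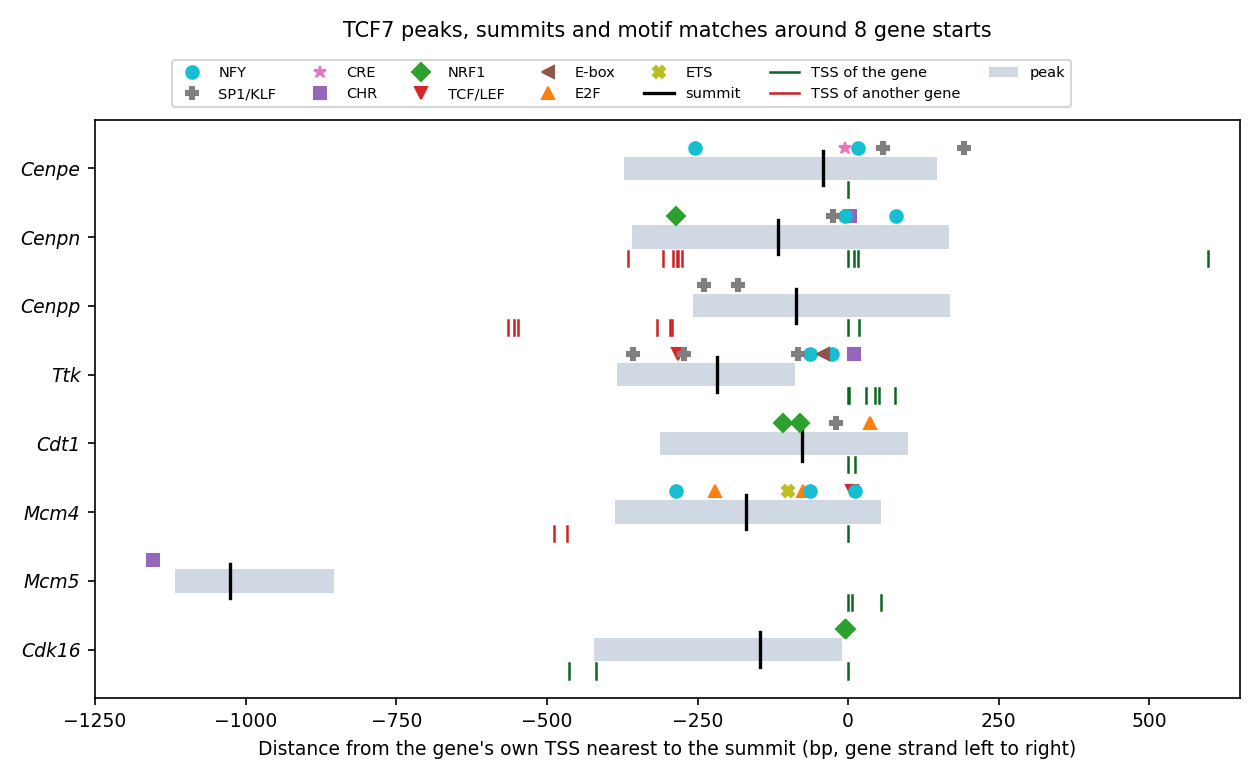
Peaks (grey bars), summits (black lines), TSS of the gene (green) and of neighbors (red) and motif matches within 250 bp of the summit (symbols) for the 8 genes, by distance in bp from the gene's own TSS nearest to the summit, with transcription running to the right. The summits of 7 genes lie 41 to 217 bp upstream of that TSS and the Mcm5 summit lies 1026 bp upstream.

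The signal at a summit is given as ChIP fragments, the number of sequenced TCF7 ChIP fragments that cover the summit, and the background as input fragments, the local input that MACS2 used. The fold enrichment is the authors' MACS2 ratio, in which the ChIP pileup was scaled down to the depth of the input (1.92 ChIP fragments per input fragment) and 1 was added to pileup and background. Intervals are exact 95% Poisson intervals of single counts and cover counting error only.

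The highest signals of the 8 were at the kinetochore genes Cenpe and Cenpn, whereas Cenpp, the other one, lay lower. Cenpe (ENSMUSG00000045328) had 523 ChIP fragments (interval 479 to 570) at the summit of a peak at chr3:135212165-135212684, where the background was 7 input fragments (2.81 to 14.4). Its fold enrichment was 34.3, which ranked 38 of 779, and by ChIP fragments it ranked 21. The summit was intergenic, 41 bp upstream of the TSS.

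Cenpn (ENSMUSG00000031756) had 498 ChIP fragments (455 to 544) over a background of 5.09 input fragments, scaled from 32 in the 1 kb around the summit, a window inferred from the value. The peak at chr8:116921371-116921897 had a fold enrichment of 42.9, the highest of the 8 and rank 6 of all peaks, but rank 32 by ChIP fragments. Its summit sat between divergent genes, 116 bp upstream of Cenpn and 159 bp upstream of Cmc2, a gene of mitochondrial cytochrome c oxidase assembly. The peak thus belongs to a shared promoter, and which of both genes it may act on was not tested.

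Cenpp (ENSMUSG00000021391) had 323 ChIP fragments (289 to 360) in a peak at chr13:49652616-49653042, the 163rd highest count of the list. The background there was 13 input fragments (6.92 to 22.2), the highest of the 8, and the fold enrichment was 12.1 (rank 289). Cenpp thus had more ChIP fragments than Cdk16 and a lower fold enrichment. Its summit too was between divergent genes, 87 bp upstream of Cenpp and 206 bp upstream of Nol8, which encodes a nucleolar protein of ribosome biogenesis.

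Ttk (ENSMUSG00000038379), the checkpoint kinase, had 172 ChIP fragments (147 to 200) over 6 input fragments (2.2 to 13.1). The peak at chr9:83834305-83834600 had a fold enrichment of 13 and ranked 266 by fold and 280 by ChIP fragments. The summit was intergenic, 217 bp upstream of the TSS, the farthest of the 7 promoter summits.

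Of the licensing genes, Mcm4 and Cdt1 had signals of similar fold. Mcm4 (ENSMUSG00000022673) had 395 ChIP fragments (357 to 436) over 10 input fragments (4.8 to 18.4), a fold enrichment of 18.8 (rank 187), in a peak at chr16:15637345-15637787. The summit was 169 bp upstream of Mcm4 and 297 bp upstream of the divergent gene Prkdc, which encodes the catalytic subunit of the DNA-dependent protein kinase of end joining.

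Cdt1 (ENSMUSG00000006585) had 281 ChIP fragments (249 to 316) over a background of 6.04 input fragments, scaled from 38 in 1 kb, and a fold enrichment of 21 (rank 161), in a peak at chr8:122567702-122568114. Its summit was 76 bp upstream of the TSS. The annotation also places it in an intron of Gm20388, a gene model that runs from 119910841 to 124345722 on the same strand of chromosome 8 and spans Cdt1.

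Mcm5 (ENSMUSG00000005410) stood apart from the other 7. It had 54 ChIP fragments (40.6 to 70.5) over 3 input fragments (0.619 to 8.77), a fold enrichment of 7.30 and a -log10 q of 14.1, in an intergenic peak at chr8:75108452-75108715. Its interval of ChIP fragments lay below those of the other 7 members and below the median of all peaks, 113. It ranked 483 by fold and 678 by ChIP fragments.

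Cdk16 (ENSMUSG00000031065) had 187 ChIP fragments (161 to 216), close to Ttk, but a fold enrichment of 27.8 (rank 98 by fold, 259 by ChIP fragments). The background was 2.54 input fragments, scaled from 16 in 1 kb, the lowest of the 8. The peak at X:20687996-20688407 was the only member peak on chromosome X and the only one with its summit in an exon, in the 5′ UTR of transcripts that start 272 and 317 bp upstream of the summit, while a further TSS of Cdk16 lies 147 bp downstream of it.

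**Figure D2:**
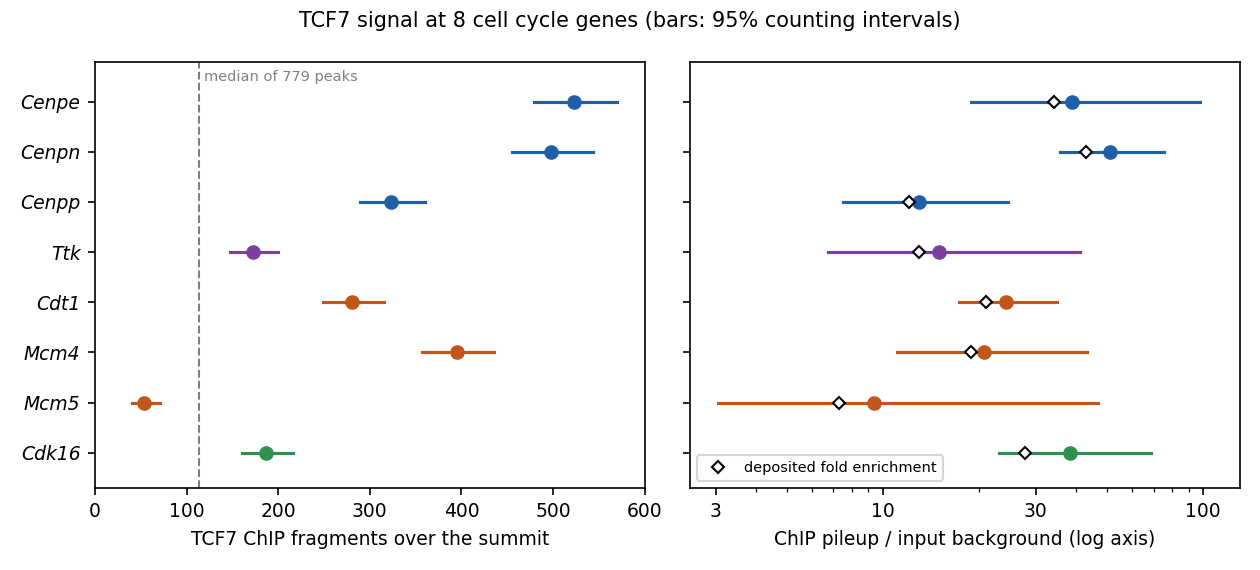
TCF7 ChIP fragments over the summit (left) and ratio of ChIP pileup to input background without added constant, on a log axis (right), for the 8 genes, with 95% counting intervals as bars and the deposited fold enrichment as diamonds. Mcm5 is the only gene left of the dashed median of all peaks, and the intervals of the ratio overlap for 26 of 28 pairs of genes.

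The order of these genes was clearer in ChIP fragments than in fold enrichment. The intervals of ChIP fragments overlapped for 4 of the 28 pairs of genes: Cenpe with Cenpn, Cenpp with Cdt1, Cenpp with Mcm4 and Ttk with Cdk16. For the ratio of pileup to background without the added 1, which carries the counting error of the input too, the intervals overlapped for 26 of 28 pairs. The 2 pairs without overlap were Cenpn (51.1, interval 35.7 to 75.5) with Cenpp (13, 7.48 to 24.6) and Cenpn with Cdt1 (24.3, 17.3 to 35). The interval of the Cenpe ratio ran from 18.8 to 97.5, and that of Mcm5 from 3.05 to 47, so the ranks by fold of genes with few input fragments are loose. These intervals treat the background as 1 free count, whereas no background in the list was below 2.13 input fragments. The background intervals of Mcm5 (from 0.619) and Cdk16 (from 1.45) reach below that. The upper ends of their ratio intervals are thus too wide for such backgrounds, and 26 of 28 may overstate the overlap. The windows behind the backgrounds of Cenpn, Cdk16 and Cdt1 were inferred, and with counts from 10 kb in place of 1 kb 22 of the 28 pairs overlapped.

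The peaks next to each member in fold order show the same spread. Cdk16 at 27.8-fold stood between the peaks of Lsg1 and Cd164, with the same fold to 3 digits but 478 and 424 ChIP fragments over 8 and 7 input fragments. The Cenpp fold of 12.1 was shared to 3 digits by Diaph1, which had the same 323 ChIP fragments and 13 input fragments, while Disp3 at 12.2-fold had 71 ChIP fragments over 2.13. The Ttk peak stood between Chd9 (174 ChIP fragments over 6.04) and Mlec (395 over 15), all at 13-fold. Cenpe (34.3) had Gm21988 at 34.3 above it and Cfap77 at 34.1 below it, Cenpn (42.9) had Zfp27 at 44.3 and Lrpprc at 41.8, Cdt1 (21) had Mat2a at 21.1 and Fkbp3 at 20.9, Mcm4 (18.8) had Fam43a at 18.9 and Mgrn1 at 18.8, and Mcm5 (7.30) had Icam5 at 7.30 and Zfp248 at 7.28.

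**Figure D3:**
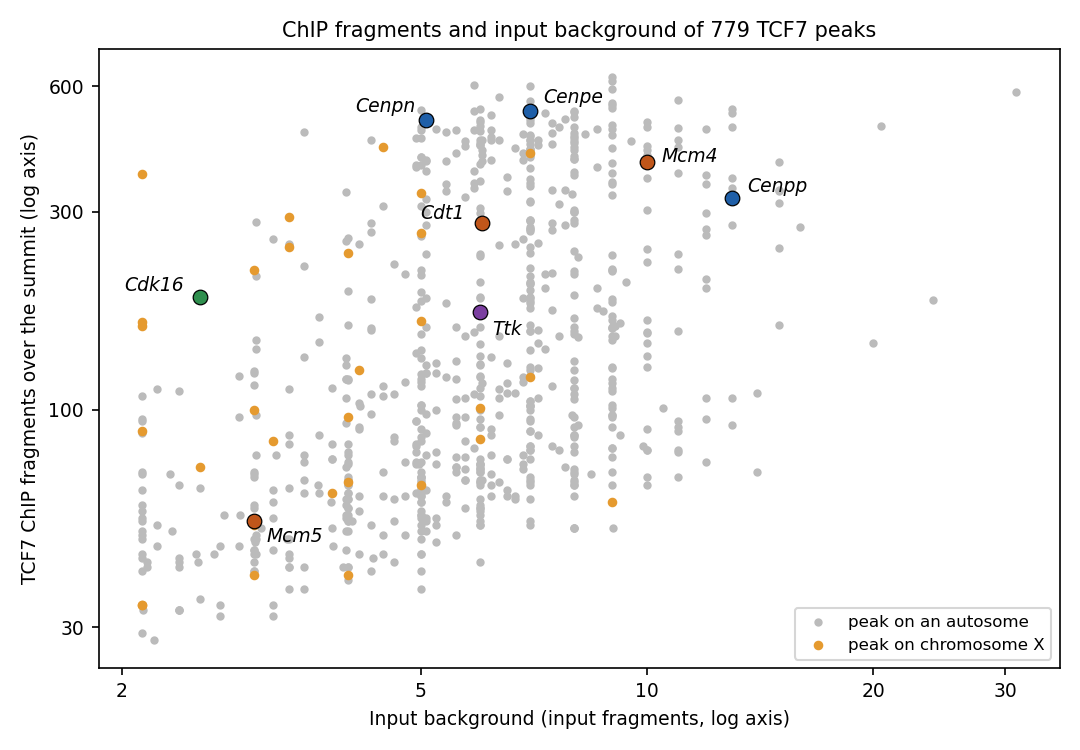
ChIP fragments over the summit against the input background used by MACS2, both on log axes, for 779 peaks (grey, autosomes; orange, chromosome X), with the 8 genes in larger circles. Cdk16 has the lowest background of the 8 (2.54 input fragments), Cenpp the highest (13), and Mcm5 the fewest ChIP fragments (54).

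Background was lower at promoter peaks on chromosome X than on autosomes in the median. The 26 promoter peaks on X had a median background of 3.91 input fragments, against 6.84 at the 449 on autosomes, and a median of 110 ChIP fragments against 201, while the median fold enrichments were 13.1 and 12.7. At 187, Cdk16 lay above the X median and below the autosomal median of ChIP fragments. The part of the chromosome in the Cdk16 fold was not tested.

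Set against the whole list, the 8 fold enrichments ran from 7.30 to 42.9 with a median of 19.9, beside 2.54 to 61.8 and a median of 8.93 for all peaks and a median of 12.7 for the 475 promoter peaks. In all, 7 of the 8 reached 10-fold, as did 351 of 779 peaks (45.1%). The median ChIP fragments were 302 for the members, 113 for all peaks and 187 for promoter peaks, and the median backgrounds were 6.02, 6 and 6.52 input fragments. The -log10 q ran from 14.1 to 329 in the members, with a median of 128 beside 32.7 for all peaks. The length of the member peaks was 264 to 527 bp (median 420 bp), and the median over all peaks was 276 bp. These medians describe peaks that were picked from the list with their values known.

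Base composition separated Mcm5 from the rest as well. The GC content of the 201 bp around the summit was 58.2% at Cdk16, 60.2% at Cenpe, 61.2% at Cenpn, 61.7% at Mcm4, 63.7% at Ttk, 69.2% at Cdt1 and 69.7% at Cenpp, but 40.3% at Mcm5. The median was 54.7% for all peaks, 58.7% for promoter peaks and 49.3% for the 304 other peaks, and 7.83% of the peaks had a GC content at or below that of Mcm5. The ratio of observed to expected CpG, which is high in CpG islands, was 0.246 at Mcm5 and from 0.615 (Cdk16) to 1.29 (Cenpp) at the other members. Its median was 0.513 for all peaks, 0.71 for promoter peaks and 0.209 for the other peaks. Mcm5 is among those other peaks, and its low ratio was near their median. Its window also held 29 repeat-masked bases.

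The 201 bp centered on a summit were searched for motifs, on both strands. The TCF/LEF motif was CTTTG with A or T at each of the next 2 bases, and 1 member peak, Ttk, held a match, as did 122 of all 779 peaks (15.7%), 9.89% of promoter peaks and 8.49% of 21938 windows of the same length at gene starts. The Ttk match was CTTTGTT on the strand opposite to the gene, 63 bp from the summit. The longer forms TCTTTGAA, CTTTGATC and CTTTGATG were found at none of the 8 summits and at 5.13% of all summits.

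Mcm4 held a CTTTGAT outside the window, within the peak but 173 bp from the summit. Within 250 bp of the summit, 28.8% of all peaks held a TCF/LEF match. The Mcm4 match was on the gene's strand, from base 4 after the TSS (the TSS itself counted as 0). On the opposite strand a CCAAT box (ATTGG as read on the gene's strand) overlapped it by 2 bases. The stretch is shown with both in capitals, chosen after its position was seen.
Mcm4 start, chr16:15637381-15637402, minus strand: ttgcctCTTTGATTGGccaggc

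For the CHR, searched as TTTGAA, which is also the end of the TCF/LEF form CTTTGAA, 0 of 8 member peaks had a match within 100 bp of the summit, beside 111 of 779 (14.2%) of all peaks. Cenpn and Ttk each held 1 at the gene start instead. In both it read TTCAAA on the gene's strand, beginning at base 1 after the TSS in Cenpn and base 7 in Ttk, with a CCAAT box, in either orientation, that starts 8 and 28 bp before the TSS. The Cenpn match was inside the peak, 117 bp from the summit, and the Ttk match was outside its peak, 224 bp from the summit. Mcm5 held a CHR match 125 bp from its summit, 1156 bp upstream of the TSS and outside the peak. A CCAAT box alone was in 28.2% of the windows at gene starts, and whether these elements act was not tested. The Cenpn and Ttk starts, also chosen after their positions were seen, are printed from the CCAAT box to the CHR, with both in capitals.
Cenpn start, chr8:116921716-116921742, plus strand: gcggccATTGGcggcTTCAAAagcacc
Ttk start, chr9:83834655-83834707, plus strand: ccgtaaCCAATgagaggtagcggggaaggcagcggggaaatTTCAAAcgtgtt

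E2F motifs (TTTCCCGC, TTTCGCGC, TTTGCCGC or TTTGGCGC) were rare at TCF7 summits, with a match in 9 of 779 (1.16%) and in 1 member, Mcm4. They were also rare at promoter peaks (1.05%) and gene starts (2.07%). Mcm4 held a pair of them on the gene's strand, TTTCCCGC at 224 bp and TTTGCCGC at 78 bp before the TSS, with an ETS motif (CCGGAAG) between them. Cdt1 held a TTTGGCGC in its peak, 108 bp from the summit and starting at base 32 after the TSS, outside the 100 bp window. The E2F matches thus lay in peaks of the licensing genes Mcm4 and Cdt1, with none within 250 bp of the Mcm5 summit. The start-site CHR matches were at Cenpn and Ttk and not at the other kinetochore genes, Cenpe and Cenpp. Among the 21938 windows at gene starts, 8.36% held a CHR. These counts are too small to compare.

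The CRE and NRF1 motifs were rare at TCF7 summits, as they were at promoter peaks (1.26% and 1.47%) and gene starts (2.01% and 2.7%). The CRE, TGACGTCA, was found at 0.899% of summits and lay in Cenpe, where it ended at the base before the TSS, 33 bp from the summit, with a CCAAT box starting 14 bp after the TSS. NRF1, GCGCATGC, was found at 0.899% of summits and, in 2 copies, in Cdt1, at 112 and 84 bp before the TSS, and the copy nearer to the TSS began 8 bases and ended 1 base before the summit. In Cdk16 a pair of overlapping NRF1 matches on opposite strands lay 138 bp from the summit and just outside the peak, and in Cenpn a match lay 290 bp upstream of the TSS, on the Cmc2 side of the peak.

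SP1/KLF boxes (GGGCGG) were in 4 of the 8 windows, those of Cenpn, Cenpp, Ttk and Cdt1, and in 24.1% of all peaks, 33.1% of promoter peaks and 40% of gene starts. Of the other motifs, CCAAT (NFY) was within 100 bp of the summit in 1 member (Cenpe; 18.1% of peaks) and CCGGAAG (ETS) in 1 (Mcm4; 4.88%). The letters AAGATGGC (YY1), CACGTG (E-box) and TGTGGTT (RUNX) were in 0 member windows and in 2.31%, 3.34% and 6.03% of all windows. The windows of Mcm5 and Cdk16 held none of the 11 motifs. A match is a run of letters and not a bound site, and the lack of one says only that those letters are not in this window.

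**Figure D4:**
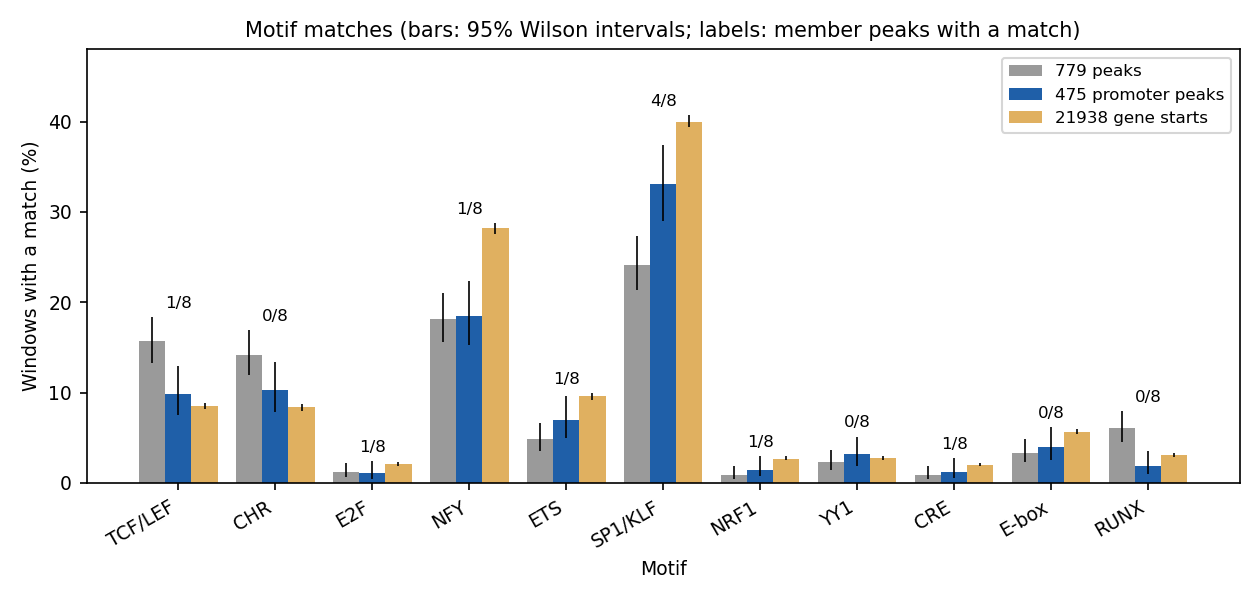
Share of 201-bp windows with a match to each motif (%), for all 779 peaks (grey), 475 promoter peaks (blue) and 21938 gene starts (yellow), with 95% Wilson intervals as error bars and the number of the 8 member peaks with a match above the bars. SP1/KLF boxes are the commonest in all sets and are in 4 of the 8 member peaks, and the TCF/LEF motif is in 1.

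Of the 8 member peaks, 3 (Cenpn, Cenpp and Mcm4) had a TSS of another protein-coding gene within 1000 bp of the summit, and 88 of 779 peaks (11.3%) had the TSS of 2 or more protein-coding genes in that distance. By definition these 88 are all among the 475 promoter peaks, as are 7 of the 8 members. All 3 neighbors, Cmc2, Nol8 and Prkdc, are transcribed away from the member. In each of the 3 the summit was nearer to the member than to the neighbor, by the nearest annotated TSS of each. For Cenpp and Mcm4 this was largely fixed by the rule, which took the nearest gene in the authors' table. For the Cenpn peak that table gave the neighbor, Cmc2.

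The other genes of these processes were taken from 7 lists with 239 genes, the 8 members included. The authors' table gave 12 of them as nearest gene of a peak (5.02%), beside 579 of all 21951 protein-coding genes (2.64%), and 16 (6.69%) had a TSS within 1000 bp of a summit, beside 553 (2.52%). By either measure, the one used for the lists below, 18 of 239 had a peak (7.53%), beside 720 of 21951 (3.28%). The members, chosen by their peaks, raise these shares: 7 of the 12, 7 of the 16 and all 8 in the 18 are members. The shares are therefore a description of the lists and not a test. No excess over all protein-coding genes can be read from them. Over the 239 genes the median distance from a TSS to the nearest summit was 619 kb, beside 787 kb for all protein-coding genes.

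Of 46 kinetochore and centromere genes, 7 had a peak by either measure: Cenpe, Cenpn and Cenpp, and beside them Cenpo, Pmf1, Ndc80 and Knstrn. Knstrn, a spindle and kinetochore adaptor, had 244 ChIP fragments (214 to 277) and 11.7-fold enrichment, and Cenpo, of the same centromere network as Cenpp, had 216 (188 to 247) and 11.4-fold at a summit 43 bp from its TSS that was assigned to its neighbor Ptrhd1. Ndc80, the microtubule-binding subunit of the outer kinetochore, had 154 (131 to 180) and 7.40-fold, with Mettl4-ps1 as the assigned gene, and Pmf1, of the Mis12 complex, had 110 (90.4 to 133) and 7.77-fold. All 4 had lower counts than Cenpe, Cenpn and Cenpp, with intervals that did not overlap theirs. Pmf1 and Knstrn held a CHR match within 100 bp of the summit and Pmf1 also a TCF/LEF match. Cenpt, whose nearest summit was 2444 bp from its TSS, was just outside the distance of 1000 bp.

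Of 14 spindle checkpoint genes, 1 had a peak, Ttk. Of 32 licensing and initiation genes, 4 had one: Cdt1, Mcm4, Mcm5 and Orc4, a subunit of the origin recognition complex, with 79 ChIP fragments (62.5 to 98.5), 8.45-fold. Within the Mcm ring, Mcm7 was 21.9 kb, Mcm6 130 kb and Mcm2 139 kb from the nearest summit, and Mcm3 was farther. Of 34 replication fork genes, 4 had a peak, and that of Timeless, a fork protection factor, had 433 ChIP fragments (393 to 476) and 27.8-fold enrichment, more ChIP fragments than Mcm4 or Cdt1 although their intervals overlapped for Mcm4. The ribonuclease H2 subunit genes Rnaseh2a (17.9-fold, 273 ChIP fragments; assigned to Prdx2) and Rnaseh2b (6.08-fold, 68; assigned to Dleu7) had summits at 44 and 117 bp from their TSS, whereas the peak of the clamp loader gene Rfc2 (9.13-fold, 103) was 9.41 kb away.

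By the same measure 1 of 58 genes of cyclins, Cdks and their inhibitors had a peak, Cdk16, and of 21 genes of the RB, E2F and MuvB group 0 had one, counts too small to set these groups apart from the 3.28% of all genes. A further 9 of the 58 and 5 of the 21 had a summit between 1000 bp and 100 kb from a TSS. Of the 9, Cdc25c was nearest, 7.67 kb from a summit with 601 ChIP fragments and 39.3-fold enrichment. The distance was 11.9 kb for Cks1b, 23.3 kb for Cdk11b, 56.3 kb for Ccne2 and 99.6 kb for Cdk2. The 5 of the RB, E2F and MuvB group ran from 34.5 kb at E2f1 to 74.6 kb at Rbl1. Cdk12 and Cdk6, outside this band, lay at 176 kb. Of 34 genes of the anaphase-promoting complex and mitotic regulators, 1 (Anapc13, 5.35-fold, 80 ChIP fragments, assigned to Cep63) had a peak, and Fzr1, at 5841 bp, did not reach the distance of 1000 bp. The list holds no value for regions below the threshold of the peak caller, so the lack of a peak at a gene does not show that Tcf7 was absent from it.

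**Figure D5:**
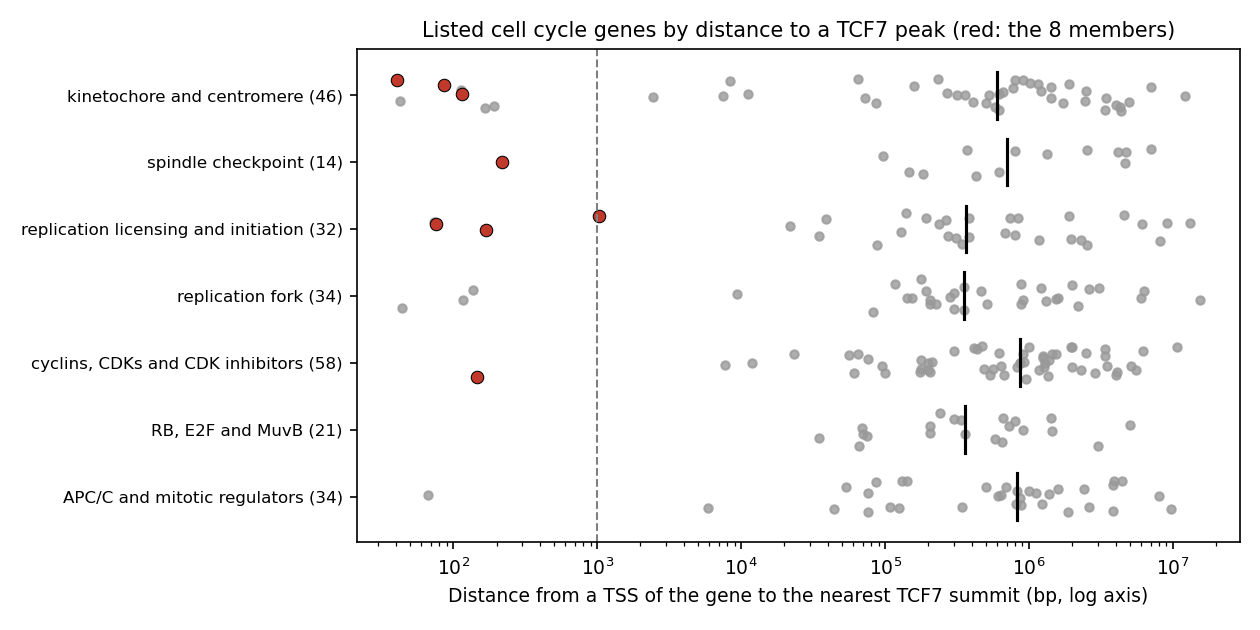
Distance from a TSS of each of 239 listed genes to the nearest TCF7 summit (bp, log axis), by list with its number of genes in brackets, with the 8 members in red, the median of each list as a black line and 1000 bp as a dashed line. In all, 16 genes lie within 1000 bp of a summit, 35 between there and 100 kb, and 188 farther away.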

How the data were processed

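The ChIP-seq measured TCF7-bound DNA in 1 library against 1 input DNA library. Per the labels and the paper's methods, the authors used Bowtie2 for alignment to mm10 and MACS2 (run in Chipster) for peaks, with no version or setting given in the sources used here. Each summit's pileup is the authors' deposited coverage signal, scaled to the input, the fold enrichment is the deposited MACS2 ratio, and p- and q-values were deposited as -log10. The headings of the authors' nearest-gene table are out of step with its columns, which were read by content, and 14 of its identifiers had no match in the annotation.

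All pileups were multiples of 0.522, the worth of 1 ChIP fragment, within 0.012 of a fragment. Input background was solved from fold enrichment and pileup. It gave back the deposited -log10 p of the 755 peaks with a finite value within 0.0029. The window was inferred from which one gives a whole count. Background equaled a whole number of input fragments at the summit (409 peaks), a count scaled from 1 kb (323) or 10 kb (21), or the lowest background, 2.13 input fragments (26). A count from 1 kb can also be read as 10 times that count from 10 kb, and this reading was added after seeing the data. The precision of a value rests on these fragments, and the depth of the libraries was not used otherwise.

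TSS and gene types came from GENCODE vM21 and sequences from the GRCm38 reference. Shares carry 95% Wilson intervals. Ratios without the added constant carry exact conditional intervals from ChIP and input counts, without regard to the lowest background. No test was made, since members were chosen by having a peak and each kind of library was 1. The members and lists were chosen with earlier results of these data known. Named genes are the 8 members, every listed gene with a peak by either measure and neighbors within 1000 bp. The genes directly above and below each member in fold order are named too. Cenpt, Fzr1, Mcm2, Mcm3, Mcm6, Mcm7, Cdk2, Cdk6, Cdk11b, Cdk12, Ccne2, Cks1b, Cdc25c, E2f1 and Rbl1 were named after their values were seen. Alternatives were other distances, windows, motif forms and thresholds. Scripts, tested on simulated data, used samtools 1.23.1 and, in Python 3.11.15, scipy 1.17.1, pandas 2.3.3, matplotlib 3.10.9, pysam 0.24.0 and numpy 2.4.6.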

Additional observations from a re-analysis of the deposited data

How the results depend on the processing

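Of the 22 alternatives, 14 stayed within 1.5 times the value reported and 8 did not. The count of members with a TCF/LEF motif was 1 within 100 bp of the summit, 0 within 50 bp, 2 within 250 bp, 0 with the longer forms and 2 over the whole peak. The count with an E2F motif was 1, 0 within 50 bp and 2 within 250 bp, and the count with a CHR was 0 and became 3 within 250 bp. In all peaks the shares with a TCF/LEF, E2F and CHR match were 28.8%, 5.39% and 29.8% within 250 bp. Within 50 bp they were 9.63%, 0.385% and 9.11%. The members of at least 10-fold enrichment numbered 7, and 4 reached 20-fold. In the whole list of 779 peaks, 20-fold was reached down to rank 172. The count of promoter members was 7 at 500 bp and 8 at 5000 bp, which includes Mcm5. The listed genes nearest to a peak numbered 12, and 8 at 10-fold, 10 at up to 1000 bp and 16 by TSS. Of 28 pairs of ratio intervals 26 overlapped, and 22 with counts from 10 kb, an alternative chosen after seeing the data. No paired analysis was possible because each kind of library was a single sample. Cenpe, Ttk, Cenpp, Mcm4 and Mcm5 rest on 3 to 13 input fragments at the summit, which limits their fold enrichments.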
